A study of Mus musculus with 25 samples.

Results

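The genes described here encode the nuclear-encoded subunits of the 5 oxidative phosphorylation complexes, read in RNA sequencing of mouse hippocampus. Rows of the count files were taken by symbol: Nduf genes with a letter a, b, c, s or v and a digit for complex I, Sdha to Sdhd for complex II, Uqcr genes for complex III, Cox4 to Cox8 genes for complex IV and Atp5 genes for complex V. Of 24421 rows, 84 matched, and 81 of those reached a CPM (counts scaled to library size) of 1 in at least 3 libraries: 36 of complex I, 4 of complex II, 8 of complex III, 16 of complex IV and 17 of complex V. All 81 passed the filter for testing among 15912 genes. Cox7b2 (at most 0.8 CPM), Ndufs5 (at most 1 count in any library) and Cox8c (0 counts in all libraries) fell below the minimum, while the lowest members kept were Cox8b, at 1 CPM or more in 4 libraries, and Atp5g2, in 6.

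Oxidative phosphorylation takes place in the inner mitochondrial membrane, where complexes I to IV pass electrons from NADH and succinate to oxygen, complexes I, III and IV pump protons, and complex V, the ATP synthase, uses the proton gradient to make ATP. Complexes I, III, IV and V mix subunits of nuclear and of mitochondrial origin, while complex II is wholly nuclear and is also an enzyme of the citric acid cycle. Neurons draw most of their ATP from this pathway, and hippocampal firing raises that demand. A symbol rule is not a structural one. Ndufa4 is now placed with complex IV, Ndufa4l2 and Cox7a2l are related proteins, and Atp5s and Atp5sl (Dmac2l and Dmac2 in RefSeq) are not ATP synthase subunits, but all are kept where their symbols put them. The 13 mitochondrially encoded subunit genes had no rows in the count files, so only the nuclear share of each complex was read.

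The study set mice with 1 disrupted copy of Scn1a (Scn1a+/-, in group names KO), a model of Dravet syndrome, against wild type (WT) at postnatal day 14 (P14) and 24 (P24), on 129S6/SvEvTac (129) and in [129S6/SvEvTac x C57BL/6]F1 mice (F1). The 9 groups were P14_129_WT (n = 2 libraries), P14_129_KO (n = 3), P14_F1_WT (n = 3), P14_F1_KO (n = 3), P24_129_WT (n = 3), P24_129_KO (n = 3), P24_F1_WT (n = 3), P24_F1_KO without seizures (n = 2) and P24_F1_KO_Sz, Scn1a+/- mice labelled as having seizures (n = 3). No drug or other treatment is named for any group. A library was a pool of 12 to 16 mice, except in the seizure group, where a pool was 3 to 4 mice, so pool size and seizures cannot be told apart. Libraries are called here by their title numbers, 1 to 3 for the seizure group, 4 and 5 for P24_F1_KO and 6 to 8 for P24_F1_WT.

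Totals ran from 7436442 to 25520050 counts. Scn1a, the targeted sodium channel gene, was lower in Scn1a+/- than in wild type in 3 of the 4 strain and age pairs, and in the P24 129 pair it went against the labels, at 140.1 CPM in libraries labelled Scn1a+/- and 110.1 CPM in libraries labelled wild type. Strain and age comparisons average both genotypes, so they are the same whichever way that pair is labelled. Age and strain comparisons share libraries with one another, and are each given by themselves. All 12 markers of hippocampal principal neurons were present in the fit. The seizure pools differed among themselves more than pools of other groups: the chi-square of 2 libraries' counts per degree of freedom was 18.4, 30.9 and 40.4 for their 3 pairs, 8.62 for pools 4 and 5 and at most 7.39 elsewhere.

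Promoters of the members are shown as a description. Their letters were not compared between members that fell with age and the others, and a link with that fall was not tested. A RefSeq promoter (GRCm38.p6, the assembly of mm10, 250 bases before to 50 after the start) was found for 67 of the 81 members, 73 promoters in all. Letters known for 3 factors of nuclear-encoded mitochondrial genes were searched on both strands: the palindromic core of NRF1, whose letters are the longest capitals in the Ndufa11 sequence, CCGGAAG for ETS factors such as GABP, and AAGATGGC for YY1. The last 3 letters of the ETS set are the first 3 of the YY1 set, so hits of both can share bases. NRF1 letters stood in 6.85% of member promoters and 0.971% of all 32851 promoters in the table, ETS letters in 21.9% and 8.86%, and YY1 letters in 16.4% and 2.75%. In the 250 bases before the start alone, the shares were 5.48% and 0.782% for NRF1, 16.4% and 6.91% for ETS, and 2.74% and 1.56% for YY1. A match is a stretch of letters and not a measured site.

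One promoter per complex is printed, from members that were lower at P24 than at P14 in both strains, chosen after their values were seen. Every printed promoter holds NRF1 or ETS letters, which stood in 5.48% and 16.4% of member promoters over these 250 bases. The printed ones are therefore not typical of the members. Each is the 250 bases before the start on the gene's own strand, 5′ to 3′, with capitals for NRF1 letters and for ETS letters (CCGGAAG, or CTTCCGG where they lie on the other strand).
Ndufa11 promoter (chr17:56717512-56717761, plus strand): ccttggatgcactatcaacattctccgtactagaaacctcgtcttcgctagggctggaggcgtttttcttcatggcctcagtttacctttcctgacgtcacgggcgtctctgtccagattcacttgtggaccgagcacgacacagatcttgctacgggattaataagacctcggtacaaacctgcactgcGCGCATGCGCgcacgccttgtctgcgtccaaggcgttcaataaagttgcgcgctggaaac
Sdhd promoter (chr9:50603850-50604099, minus strand): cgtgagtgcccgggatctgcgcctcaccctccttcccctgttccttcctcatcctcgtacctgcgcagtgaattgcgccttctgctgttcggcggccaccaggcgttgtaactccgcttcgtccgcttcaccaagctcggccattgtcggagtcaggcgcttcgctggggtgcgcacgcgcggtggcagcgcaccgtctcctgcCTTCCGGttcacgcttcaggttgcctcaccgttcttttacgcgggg
Uqcr11 promoter (chr10:80406822-80407071, minus strand): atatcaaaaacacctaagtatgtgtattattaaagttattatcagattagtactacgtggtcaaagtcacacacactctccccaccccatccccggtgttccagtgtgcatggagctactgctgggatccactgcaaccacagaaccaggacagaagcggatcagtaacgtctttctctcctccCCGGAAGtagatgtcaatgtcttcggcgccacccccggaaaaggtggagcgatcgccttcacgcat
Cox6a1 promoter (chr5:115348959-115349208, minus strand): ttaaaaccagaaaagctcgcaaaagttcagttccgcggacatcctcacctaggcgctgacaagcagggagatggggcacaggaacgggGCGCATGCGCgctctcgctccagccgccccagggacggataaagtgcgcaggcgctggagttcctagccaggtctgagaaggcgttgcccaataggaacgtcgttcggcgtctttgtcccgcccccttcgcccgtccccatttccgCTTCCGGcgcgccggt
Atp5e promoter (chr2:174464102-174464351, minus strand): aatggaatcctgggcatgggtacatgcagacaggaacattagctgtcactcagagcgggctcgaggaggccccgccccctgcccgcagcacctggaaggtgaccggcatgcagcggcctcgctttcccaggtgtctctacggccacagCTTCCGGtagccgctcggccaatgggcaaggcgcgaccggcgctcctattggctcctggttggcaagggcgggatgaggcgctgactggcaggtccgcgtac
Ndufa11 and Cox6a1 hold NRF1 letters, Sdhd, Uqcr11 and Atp5e hold ETS letters, and Cox6a1 holds both.

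Per kilobase of the Ensembl canonical transcript, the most abundant members over all 25 libraries were Cox8a (mean 725 CPM per kb), Cox4i1 (714), Cox6a1 (631) and Ndufa4 (613), which all belong to cytochrome c oxidase or associate with it, and then Atp5b (492), the catalytic beta subunit of the ATP synthase. Sdha, the flavoprotein of complex II, stood at 107 CPM per kb, above Sdhd (78.8), Sdhb (36.8) and Sdhc (35.1). The isoforms known from muscle, testis or lung were far lower: Cox7a1 was at 4.26, Cox6a2 at 3.29, Cox6b2 at 3.25, Cox4i2 at 1.24 and Cox8b at 0.268 CPM per kb. Ndufa4l2, a relative of Ndufa4, was at 2.58 CPM per kb. Genes with near-identical copies elsewhere in the genome can lose or share reads in counting, which was not tested. The spans of 27 members, introns included, overlap another gene in RefSeq (Uqcrq with Gdf9, Uqcr10 with Gm51883, Ndufa4l2 with Shmt2). The kit does not mark strand, so reads from exon bases that both genes of a pair share cannot be told apart. Overlap of exons was not counted.

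**Figure D1:**
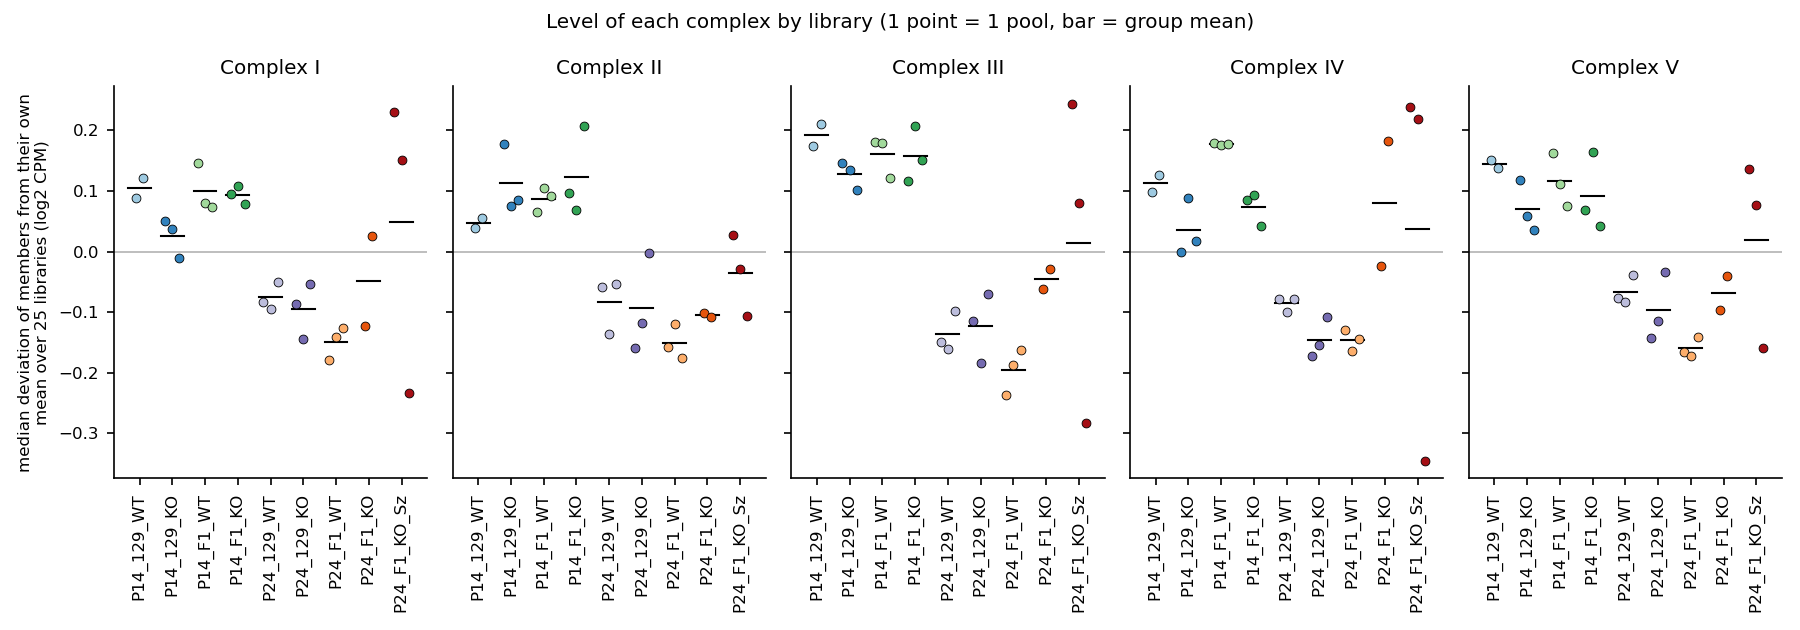
Median deviation of the members of each complex from their own mean over 25 libraries (vertical axis, log2 CPM), by title group (horizontal axis). Each point is 1 pool and each bar a group mean. In each of the 5 panels both strains' P14 groups lie above the P24_129 groups and P24_F1_WT. The P24_F1_KO mean of complex IV (0.08) reaches the P14 levels, and the 3 seizure pools spread widely in all panels but complex II.

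Members were called most often in the comparisons of age. As a share of all counts, the members took 1.18% ± 0.00554 (SD, n = 2) in P14_129_WT, 1.13% ± 0.00901 (n = 3) in P14_129_KO, 1.18% ± 0.0309 (n = 3) in P14_F1_WT and 1.17% ± 0.0106 (n = 3) in P14_F1_KO. At P24 they took 1.01% ± 0.0183 (n = 3) in libraries labelled wild type and 0.996% ± 0.0274 (n = 3) in libraries labelled Scn1a+/- of 129, and 0.977% ± 0.00751 (n = 3) in P24_F1_WT and 1.05% ± 0.0498 (n = 2) in P24_F1_KO. Every P14 library lay above every P24 library of these groups. The seizure pools took 1.11% ± 0.153 (n = 3), with a range from 0.937% to 1.24% that spans both ages.

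In 129 mice, 38 of the 81 members were lower at P24 than at P14 and 3 were higher by edgeR's quasi-likelihood test, against 17.1% of all tested genes called lower and 17.3% called higher. In F1 mice 46 were lower and 3 higher, against 19.4% and 19% of all genes. The median log2 fold change over members was -0.20 in 129 and -0.22 in F1, where that over all tested genes was 0.01 and 0.00. The strains share no libraries, and 35 members were called lower in both, 92.1% of those lower in 129 and 76.1% of those lower in F1. That overlap was not counted over all genes, so it cannot be read as particular to the members. No library overlap between ages was seen for 34 members that were lower in 129 (12.4% of all genes) and 32 in F1 (12.6%).

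Complexes II and III had the highest shares of members that fell, 3 of 4 and 6 of 8 in each strain. Uqcrq (chromosome 11, 53427922 to 53430831), a small subunit near the ubiquinone-binding part of the complex, was at 172, 169 and 178 CPM in P14_129_KO and 185 and 177 in P14_129_WT, and at P24 at 126, 124 and 127 in the 129 libraries labelled KO and 135, 133 and 128 in those labelled WT. In F1 it was at 170.3, 187 and 180.3 CPM in P14_F1_KO and 199, 184 and 179 in P14_F1_WT, against 128 and 151 in P24_F1_KO and 121, 127 and 121 in P24_F1_WT. All P14 libraries were above all P24 libraries in both strains. Expressed as log2 fold changes, these were -0.46 ± 0.064 (SE) in 129 and -0.48 ± 0.064 in F1 (edgeR adjusted p = 8.56e-07 and 3.79e-07).

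Uqcr11 (chromosome 10, 80402997 to 80406821), a small accessory subunit of complex III, fell by 0.54 on the log2 scale in 129 and by 0.43 in F1, from 120.5 ± 5.95 to 83.2 ± 4.82 CPM (SD, n = 5 and 6) and from 119.1 ± 8.94 to 87.2 ± 9.79 (n = 6 and 5). Uqcr10 and the Rieske iron-sulfur protein gene Uqcrfs1 were also lower in both strains. Uqcrc1 and Uqcrc2, the large core proteins, were lower in F1 only by call, with log2 fold changes of -0.20 and -0.20 there and -0.13 and 0.02 in 129, and the difference between strains passed the test for neither.

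In complex II the 3 genes that fell were the same in both strains, and Sdha was not among them. Sdhd (chromosome 9, 50596340 to 50603849), a membrane anchor, was at 116, 106 and 107 CPM in P14_129_KO and 104 and 99.4 in P14_129_WT, and at P24 at 80.6, 87.1 and 90.8 in the KO-labelled and 91.0, 82.0 and 86.4 in the WT-labelled 129 libraries. In F1 it was at 119.0, 123 and 122 CPM (P14_F1_KO) and 116, 108 and 121 (P14_F1_WT), against 88.6 and 89.3 (P24_F1_KO) and 85.8, 86.6 and 83.4 (P24_F1_WT). The ages did not overlap in either strain. The log2 fold change was -0.29 ± 0.051 in 129 and -0.44 ± 0.051 in F1 (edgeR adjusted p = 3.49e-05 and 3.13e-08).

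The other anchor, Sdhc, fell by 0.25 and 0.28 on the log2 scale in 129 and F1, and the iron-sulfur protein gene Sdhb by 0.21 and 0.23. Sdha (chromosome 13, 74322255 to 74350240), which encodes the catalytic flavoprotein, was higher at P24 in 129, at 341 ± 10.5 against 309.5 ± 8.38 CPM (SD, n = 6 and 5, log2 fold change 0.14 ± 0.047, adjusted p = 0.0212). In F1 its log2 fold change was 0.07 ± 0.047 and not called. The call in 129 was lost without P24_129_KO library 9, without P14_129_WT library 24 (log2 fold change 0.13 and 0.11) and with no filter on low counts.

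In complex IV, 7 of 16 members were lower in 129 and 8 in F1. Cox5a (chromosome 9, 57517328 to 57532427), a matrix-side subunit that takes part in allosteric control of the enzyme, was at 130.2, 127 and 132 CPM in P14_129_KO and 124 and 136 in P14_129_WT, and at P24 at 101.5, 105.5 and 101 in the KO-labelled and 98.0, 103 and 107 in the WT-labelled 129 libraries. In F1 it was at 132, 132 and 134 CPM (P14_F1_KO) and 134, 131 and 135 (P14_F1_WT), against 108 and 97.7 (P24_F1_KO) and 99.6, 95.0 and 101 (P24_F1_WT). Every P14 library lay above every P24 library. Its log2 fold change was -0.34 ± 0.045 in 129 and -0.41 ± 0.046 in F1 (adjusted p = 4.41e-07 and 1.82e-08). Cox6b1, on the intermembrane-space side, fell by 0.40 and 0.41 on the log2 scale, and Cox6c by 0.33 and 0.31.

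The most abundant complex IV genes, Cox8a and Cox4i1, did not pass the test, while Cox6a1, Cox6b1 and Cox6c were lower in both strains. Cox4i1 had log2 fold changes of -0.11 and -0.01 and Cox8a of -0.09 and -0.004 in 129 and F1 (0.04 for both genes in F1 with an offset for transcript length). Without the seizure libraries Cox4i1 was called lower in 129 (edgeR adjusted p = 0.0251). The muscle isoform Cox8b is 1 of the 3 members called higher in each strain, but it met the minimum level only through 4 libraries, all of P24, so its difference with age is given as values alone. It was at 0.256 ± 0.148 CPM at P14 and 1.02 ± 0.433 at P24 in 129 (SD, n = 5 and 6), and at 0.147 ± 0.206 and 0.694 ± 0.0975 in F1 (n = 6 and 5). Cox6b2, known from testis, was higher in F1 (0.62 ± 0.23, adjusted p = 0.0288) and not called in 129 (0.14 ± 0.23). That call in F1 was lost without any 1 of libraries 4, 7, 17 or 19 (P24_F1_KO, P24_F1_WT, P14_F1_KO and P14_F1_WT).

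In complex V, 8 of 17 members were lower in 129 and 10 in F1. The c-ring of the ATP synthase, which turns as protons pass, is encoded by Atp5g1, Atp5g2 and Atp5g3 with the same mature protein. Atp5g3, the main one here (297 CPM per kb), fell by 0.30 and 0.41 on the log2 scale, from 326 ± 4.69 to 265 ± 11.7 CPM in 129 (SD, n = 5 and 6) and from 334 ± 8.80 to 251 ± 9.24 in F1 (n = 6 and 5). Atp5g1 fell by 0.54 and 0.32, and Atp5g2, at 0.554 to 0.930 CPM on average, had log2 fold changes of 0.04 and 0.06, the latter -1.10 without pools 3 and 5.

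The genes of the catalytic head and the stalks differed among themselves. The delta and gamma subunit genes Atp5d and Atp5c1 fell in both strains, by 0.31 and 0.28 and by 0.25 and 0.32 on the log2 scale. The catalytic head genes Atp5a1 and Atp5b were lower in F1 by call (-0.22 and -0.19), and in 129 they had log2 fold changes of -0.06 and -0.11, which were not called. Atp5sl, an assembly-related gene that carries an Atp5 symbol, went the other way, from 31.1 ± 1.52 to 38.2 ± 2.24 CPM in 129 (SD, n = 5 and 6, log2 fold change 0.30 ± 0.065) and by 0.30 ± 0.065 in F1 (adjusted p = 0.000555 and 0.000414).

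In complex I, 14 of 36 members were lower in 129 and 19 in F1, and none was higher in either. Ndufs4, whose loss is known to cause Leigh-like disease in mice, fell by 0.30 and 0.40 on the log2 scale, Ndufa1 by 0.33 and 0.36, and Ndufb6 by 0.35 and 0.19. Ndufv1, the subunit that binds NADH, had log2 fold changes of -0.002 (0.009 with the length offset) and 0.013. Ndufa4l2, a low-level relative of Ndufa4, was lower in both strains (-0.46 ± 0.18 and -0.65 ± 0.19, adjusted p = 0.0465 and 0.00634), and its call in 129 was lost under most alternatives, among them without any 1 of libraries 9, 10, 11, 13, 14, 21, 22, 24 or 25. Ndufa4 itself fell by 0.25 and 0.31.

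**Figure D2:**
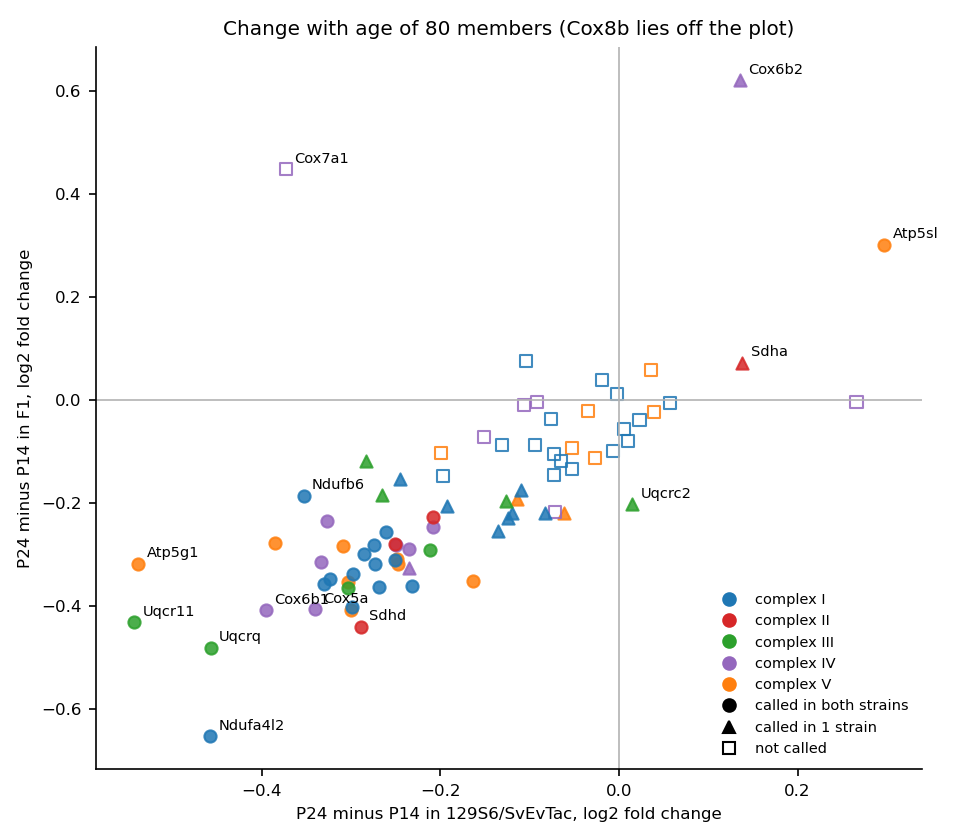
Log2 fold change from P14 to P24 of 80 members in 129 (horizontal axis) and F1 (vertical axis), coloured by complex, with circles for members called the same way in both strains, triangles for those called in 1 and open squares for those called in neither. The lower left holds the 35 members lower in both strains, Atp5sl, Sdha and Cox6b2 lie on the upper right, and Cox8b (1.88 and 2.44) is off the plot.

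No member was called as differing between strains in its change with age by edgeR's interaction test (smallest adjusted p = 0.504). Of all genes, 0.00628% were called, and DESeq2 called 0 members. An unadjusted p under 0.05 was reached by 4 of 81 members, beside 8.14% of all genes. Other genes of the pathway were read from lists taken by function, beside the 17.1% of all genes lower in 129 and 19.4% in F1. Of 19 tested genes of the citric acid cycle and pyruvate dehydrogenase, 8 were lower in 129 (42.1%) and 11 in F1 (57.9%) and 0 were higher. They include Pdha1, the pyruvate dehydrogenase alpha subunit (-0.30 and -0.40), and Mdh2, malate dehydrogenase (-0.24 and -0.36). Of 20 carrier, import and cristae genes, 7 (35%) and 13 (65%) were lower and 1 was higher in each strain, with the phosphate carrier Slc25a3 at -0.25 and -0.26, the cristae gene Chchd3 at -0.22 and -0.41 and the import receptor gene Tomm20 at 0.24 and 0.15.

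Of 15 other electron transport and ATP synthase genes, 4 were lower (26.7%) and 1 higher in 129 and 7 lower (46.7%) in F1. They include Atpif1, the ATP synthase inhibitor (-0.51 and -0.54). Of 45 assembly factors, 4 were lower (8.89%) and 2 higher in 129, and 7 lower (15.6%) and 5 higher in F1, shares below those of all genes, with Tmem70, needed to assemble the ATP synthase, at -0.26 and -0.35, and Cox17, the copper chaperone of complex IV, at 0.31 and 0.28. Of 15 regulators of mitochondrial gene expression, 1 was lower in 129 (6.67%, Ppargc1a, the coactivator PGC-1alpha, -0.16 ± 0.057, adjusted p = 0.0282), and in F1 1 was lower (Gabpa, -0.20) and 2 were higher (Pprc1, 0.24, and Ppargc1b, 0.28).

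Cell markers and transcript length moved with age too. The summed level of 10 myelinating oligodendrocyte markers was 5926 to 8293 CPM over P14 libraries and 13290 to 16800 CPM over P24 libraries without seizures, and all 10 were higher in each strain. Some other sums were lower at P24 without seizures, with no overlap. Oligodendrocyte precursor markers ran from 1302 to 1430 CPM at P14 and from 887 to 1080 at P24. Pericyte and smooth muscle markers ran from 187 to 219.7 and from 123 to 157, and astrocyte markers from 10050 to 10760 and from 8599 to 9993. The sums of the remaining cell types overlapped between the ages. Hippocampal principal neuron markers ran from 976 to 1137 and from 967 to 1161, and pan-neuronal markers from 6231 to 7127 and from 5438 to 7074. Parvalbumin interneuron markers ran from 606 to 674 and from 649 to 798. In bulk tissue, fewer cells of a type and less RNA per cell cannot be told apart. Ribosomal protein genes, also short and abundant, had medians of -0.14 and -0.11, and 86 other tested genes with transcripts under 700 bases, whose mean log2 CPM was 3 or more, had medians of -0.06 and -0.06, where the 23 members of that length had medians of -0.26 and -0.22. The part of cell composition and of length in the result was not tested. With an offset that follows transcript length, 36 members were lower in 129 and 46 in F1, beside 34.5% and 38.7% of all genes called in either direction. The median log2 fold change over members was then -0.14 in 129 and -0.18 in F1.

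**Figure D3:**
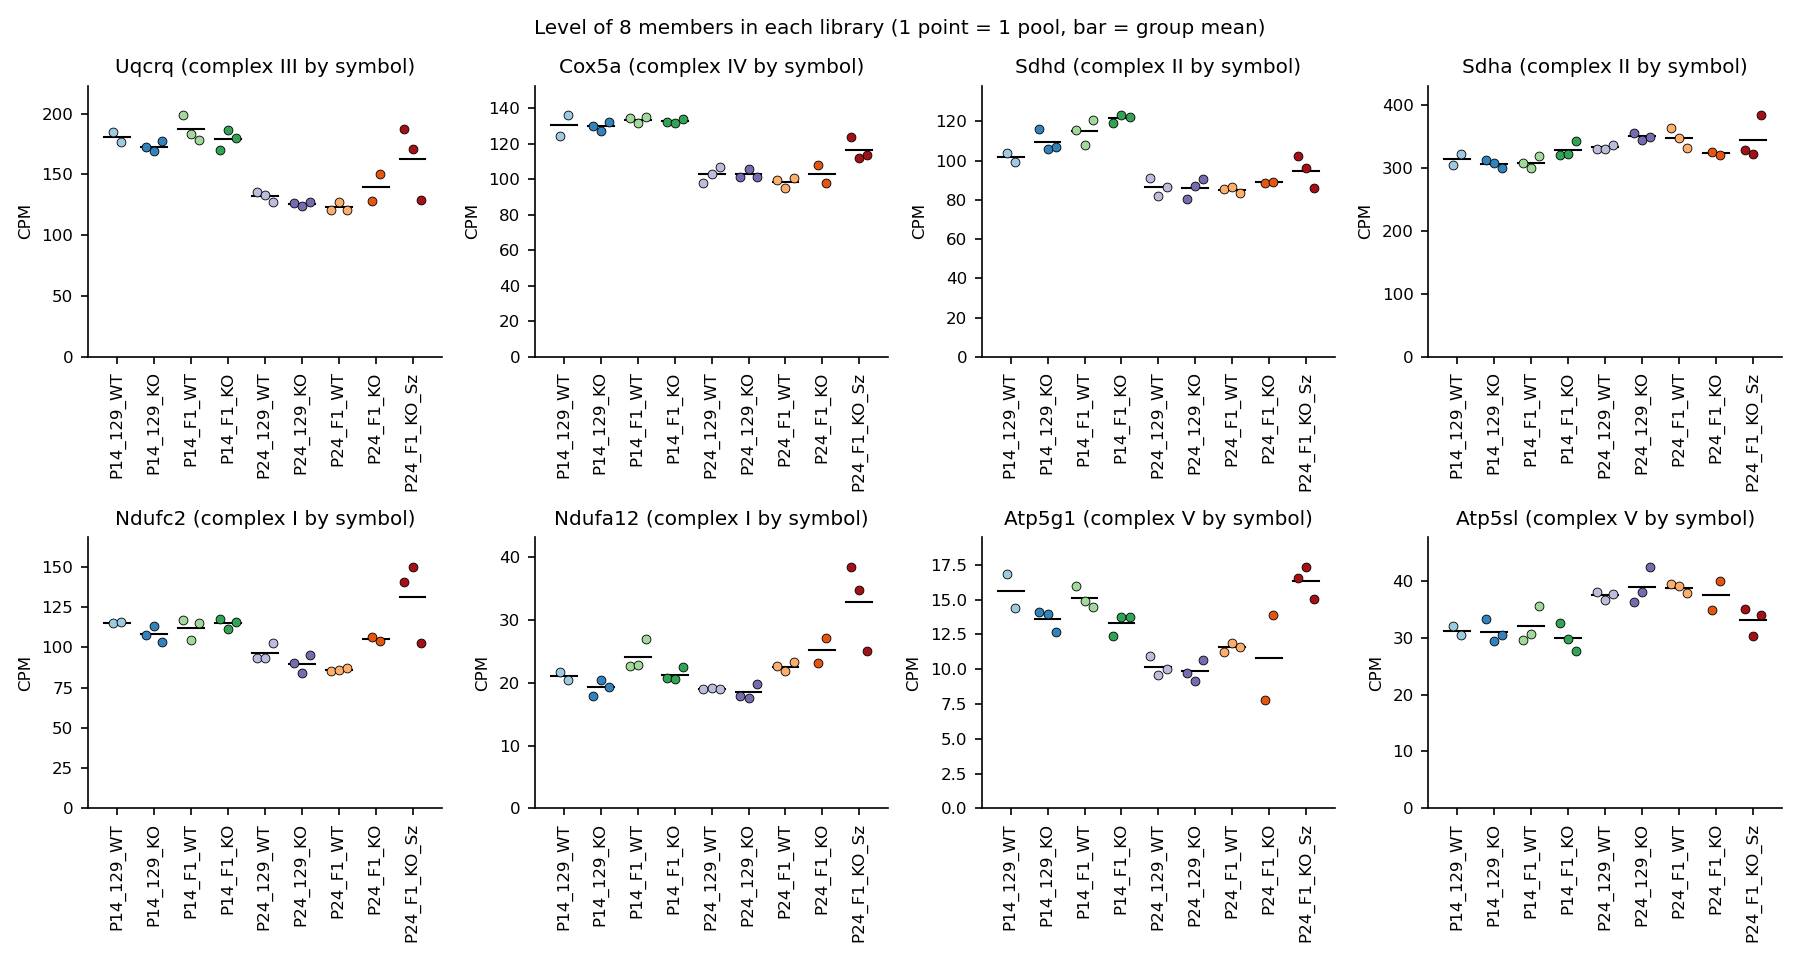
CPM (vertical axis, from 0) of 8 members in each library by title group (horizontal axis), 1 point per pool with the group mean as a bar. Uqcrq, Cox5a and Sdhd step down from P14 to P24 in both strains, Sdha and Atp5sl do not, and Ndufc2 and Ndufa12 reach their highest values in seizure pools 1 and 2. Atp5g1 is highest in seizure pool 2, with P14_129_WT library 24 next.

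The seizure pools were compared with wild type and with Scn1a+/- F1 mice without seizures of the same age. Both comparisons share the 3 seizure pools, so each is given by itself. Against P24_F1_WT, 31 of 81 members were higher and 1 lower by edgeR's quasi-likelihood test, where 12.4% of all genes were called higher and 10.1% lower, with a median log2 fold change of 0.21. By complex, 14 of 36 members of complex I were higher, 1 of 4 of complex II, 3 of 8 of complex III, 4 of 16 of complex IV and 9 of 17 of complex V. Libraries did not overlap for 11 members that were higher (15.7% of all genes) and for 2 that were lower (15.6%), so on that measure the members stood no higher than all genes.

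The 3 pools differed. Against the mean of the 3 P24_F1_WT pools, the median over members was 0.39 (log2) in pool 1, with 74 of 81 above it, 0.31 in pool 2, with 64 above, and -0.09 in pool 3, with 28 above. Complex IV showed the widest gap, with medians of 0.40, 0.32 and -0.17. The 86 other genes with transcripts under 700 bases moved in the same pools by medians of 0.40, 0.30 and -0.16, and 78 ribosomal protein genes by 0.56, 0.45 and -0.12. Summed pan-neuronal markers, 10 of 10 detected, were at 6076, 5363 and 7379 CPM in pools 1, 2 and 3 and 6199 to 6968 in P24_F1_WT. Myelinating oligodendrocyte markers summed to 11460, 16640 and 10600 CPM in those pools and 14550 to 16800 in wild type, and 7 of 10 were called lower. Astrocyte markers summed to 9967, 10690 and 9459 CPM, above all wild-type pools (8599 to 9344), with 3 of 10 called higher and 6 lower. The part of transcript length and of these cell types in the result was not tested.

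Among the 11 members whose pools did not overlap with wild type, Ndufc2, Ndufa12 and Atp5g1 had the largest fold changes, and they were called under every alternative run. Ndufc2 (chromosome 7, 97400003 to 97407800), an accessory membrane-arm subunit of complex I, was at 141, 150.2 and 103 CPM in pools 1, 2 and 3, 106 and 104 in P24_F1_KO and 85.1, 85.7 and 87.3 in P24_F1_WT. Its log2 fold change against wild type was 0.61 ± 0.085 (edgeR adjusted p = 1.77e-06). Both P24_F1_KO pools were also above all wild-type pools, and seizure pool 3 lay just below both of them.

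Ndufa12 (chromosome 10, 94199035 to 94221440), another accessory subunit of complex I, was at 38.5, 34.8 and 25.1 CPM in the seizure pools, 23.2 and 27.2 in P24_F1_KO and 22.7, 21.8 and 23.2 in wild type (0.54 ± 0.11, adjusted p = 0.000243). Atp5g1 (chromosome 11, 96072793 to 96075694) was at 16.5, 17.4 and 15.1 CPM against 11.3, 11.9 and 11.6 in wild type (0.50 ± 0.12, adjusted p = 0.00313). The 2 P24_F1_KO pools stood at 7.79 and 13.9 CPM for Atp5g1 and so lay on both sides of wild type. For each of these 3 genes the lowest seizure pool was above the highest wild-type pool.

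Of the other complexes, Uqcrq was at 187, 171 and 129 CPM against 121, 127 and 121 in wild type (0.40 ± 0.084, adjusted p = 0.000563). Sdhb was at 175, 160.3 and 145.5 CPM against 136, 142 and 135 (0.22 ± 0.064, adjusted p = 0.0122), and Cox5a at 124, 112 and 114 CPM against 99.6, 95.0 and 101 (0.24 ± 0.060, adjusted p = 0.00272). For these members too every seizure pool was above every wild-type pool, but the Sdhb call was lost without pool 1 or wild-type library 6 or 8. In Cox7c, Cox7a2 and Cox7b, the complex IV members with the largest called rises, the groups overlapped, as in Cox7a2 at 224, 228 and 136 CPM against 148, 157 and 154.

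Atp5sl was the 1 member called lower, at 34.96, 30.25 and 33.95 CPM against 39.4, 39.1 and 37.9 in wild type (-0.23 ± 0.082, adjusted p = 0.0406), a call lost without pool 2 or any 1 of the wild-type libraries. Cox6a2, the heart and muscle isoform of subunit VIa, was at 2.07, 2.03 and 1.41 CPM against 2.63, 2.74 and 3.44, with no overlap, and was not called (adjusted p = 0.0612).

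These counts rest on single pools. Without pool 1, 2 or 3 the test called 6, 16 or 58 members higher, beside 21.7%, 18.3% and 30% of all genes called in either direction. Without wild-type library 6, 7 or 8 it called 11, 14 or 15, beside 17.4%, 16.6% and 17.3% of all genes. The median was 0.10 without pool 1 and 0.32 without pool 3. A fit of the 2 groups alone called 3, beside 10.4% of all genes in either direction. A fit with an offset for transcript length called 16 higher and 2 lower (22.4% of all genes), with a median of 0.08. Without pool 1, without wild-type library 6 and in the fit of the 2 groups alone, the share of members called lay below that of all genes. With the length offset it lay just below that of all genes too. Of other pathway genes, beside 12.4% of all genes, 4 of 15 in electron transport (26.7%) and 9 of 45 assembly factors (20%) were higher. Higher too were 0 of 19 of the citric acid cycle, 1 of 20 carrier and import genes (5%) and 0 of 15 regulators. In either direction, 2 citric acid cycle genes and 2 regulators had an unadjusted p under 0.05, beside 33.8% of all genes. The 1 regulator called lower was the estrogen-related receptor gene Esrrg (-0.48 ± 0.12, edgeR adjusted p = 0.00305). The assembly factors included Timmdc1, of complex I (0.40), and Sdhaf2, which loads flavin onto Sdha (0.25).

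**Figure D4:**
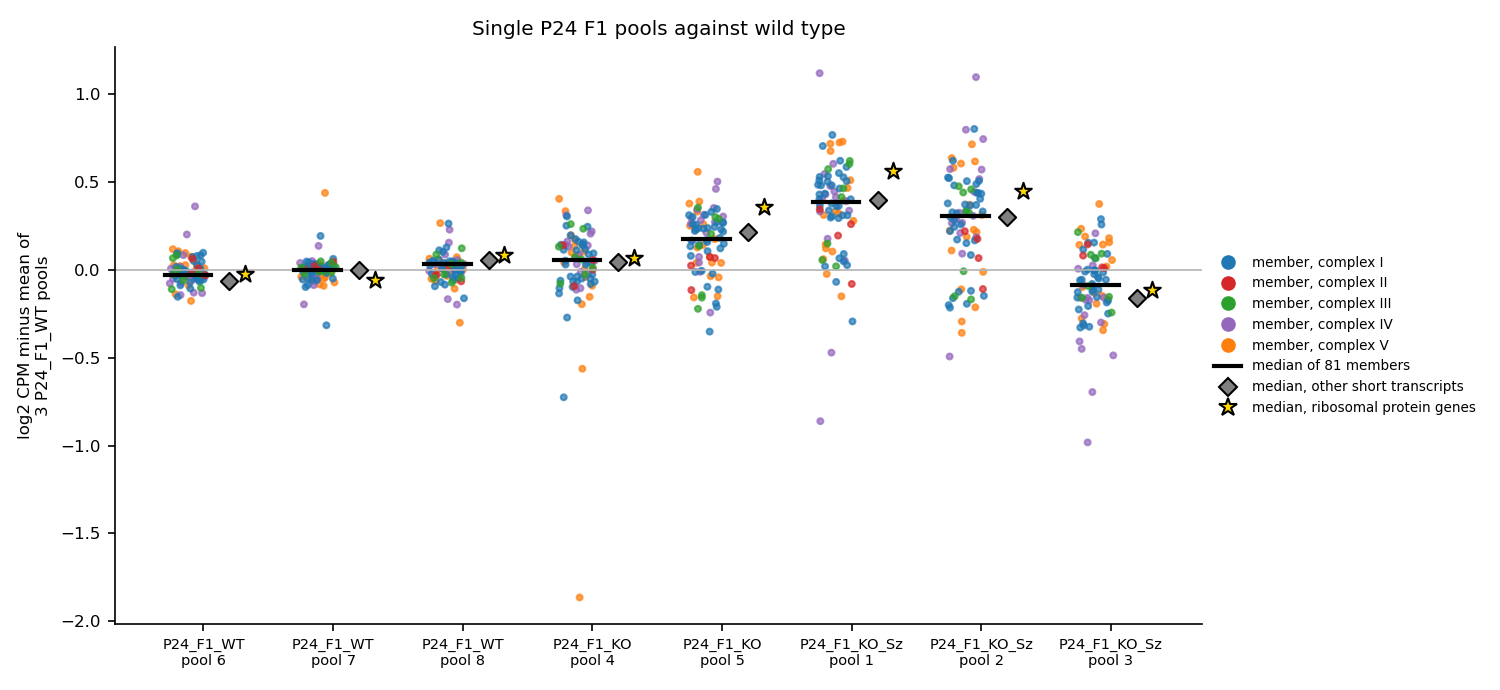
Log2 CPM of the 81 members in each P24 F1 pool minus their mean over the 3 P24_F1_WT pools (vertical axis), 1 small point per member coloured by complex. Black bars are medians over members, diamonds the medians of 86 other genes with transcripts under 700 bases and stars those of 78 ribosomal protein genes, in both cases genes whose mean log2 CPM was 3 or more. The medians of pools 1, 2, 4 and 5 lie above 0, with pool 4 the nearest to it, that of pool 3 lies below, and the diamonds follow the bars.

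Against P24_F1_KO, 4 of 81 members were higher in the seizure group and 1 lower, against 8.72% and 7% of all genes, with a median log2 fold change of 0.10. Those higher were Atp5g1 (0.55 ± 0.15, adjusted p = 0.00746), Ndufc2 (0.32 ± 0.097, adjusted p = 0.0198), Ndufa10 (0.29 ± 0.093, adjusted p = 0.0291) and Ndufa12 (0.37 ± 0.12, adjusted p = 0.0336). Atp5s, an assembly-related gene, was lower, at 16.5, 13.6 and 13.2 CPM against 22.2 and 17.6 (-0.45 ± 0.14, adjusted p = 0.0212). Without pool 1, 2 or 3 the test called 1, 7 or 31 members higher, beside 18.7%, 16.8% and 17.5% of all genes in either direction. DESeq2 called 8, beside 16.4% of all genes. The median was 0.002 without pool 1, 0.22 without pool 3 and 0.05 with the length offset. Without pool 4 or 5 the P24_F1_KO group was 1 pool, and only the medians are given, 0.03 and 0.12. Pools did not overlap for 8 members that were higher and 2 that were lower (16% of all genes each way). Of the pathway lists, beside 8.72% of all genes, 1 of 19 citric acid cycle genes was higher (5.26%, Idh3a at 0.29). So was 1 of 20 carrier and import genes (5%, the outer membrane channel Vdac1 at 0.29). No gene of the other lists was called in either direction. In these, 2 electron transport genes, 6 assembly factors and 4 regulators had an unadjusted p under 0.05, beside 27.6% of all genes.

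In Scn1a+/- mice without seizures, no member was called against wild type in any strain or age by edgeR or DESeq2, against 0% of all tested genes in each comparison by edgeR. At an unadjusted p under 0.05 there were 0 of 81 members in P14 129 mice, 1 in P14 F1 mice, 0 between the P24 129 libraries as labelled and 11 in P24 F1 mice (2.46%, 4.55%, 2.96% and 5.59% of all genes). Median log2 fold changes over members were -0.06, -0.01, -0.02 and 0.14. The last was 0.04 with the length offset and 0.05 without pool 5. In the same order, libraries did not overlap for 2, 5, 3 and 36 members that were higher in Scn1a+/- (9.59%, 6.72%, 5.84% and 14.3% of all genes) and for 27, 3, 4 and 3 that were lower (9.38%, 6.01%, 4.88% and 14.8%). No difference between strains in the genotype effect was called for a member at P14 or, with the 129 libraries as labelled, at P24. Of all genes, 0% and 0.00628% were called. Members at an unadjusted p under 0.05 numbered 0 and 6 of 81, beside 3.11% and 6.21% of all genes. The 1 gene called at P24 was Scn1a itself (-0.64 ± 0.11, adjusted p = 0.0473), whose level goes against the P24 129 labels, so the P24 difference rests on labels in doubt. P24_F1_WT also serves in the seizure comparison.

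The 2 P24_F1_KO pools differed. Pool 4 had a median of 0.06 (log2) above wild type, with 52 of 81 members above, and pool 5 of 0.18, with 63 above. By complex the medians in pools 4 and 5 were 0.04 and 0.20 for complex I, 0.03 and 0.05 for complex II, 0.07 and 0.17 for complex III, 0.11 and 0.28 for complex IV and 0.08 and 0.13 for complex V. Other genes with transcripts under 700 bases had medians of 0.05 and 0.22, and summed pan-neuronal markers were at 6595 and 5438 CPM. The part of these in the result was not tested.

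Members with the smallest p in each complex were Ndufc2 (0.29 ± 0.096), Sdha (-0.10, at 326 and 321 CPM in pools 4 and 5 against 363, 347 and 332), Uqcrh (0.30 ± 0.13), Cox7a2 (0.32 ± 0.12) and Atp5j (0.23 ± 0.090), with adjusted p of 0.833 to 0.836 by edgeR. Both pools lay above all wild-type pools for Ndufc2, Uqcrh, Cox7a2 and Atp5j and below them for Sdha. When the 3 seizure libraries were left out of the fit, 8 members were called higher, against 1.27% of all genes: Atp5e, Atp5j, Cox6c, Cox7a2, Cox7b, Ndufb9, Ndufc2 and Uqcrh.

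Between strains few members differed. At P14, 0 members were called by edgeR, against 2.04% of all genes called higher and 1.66% lower (3.7% in all), 5 had an unadjusted p under 0.05 (13.8% of all genes) and DESeq2 called 1. The smallest p in complex II was that of Sdhd (0.16 ± 0.051, adjusted p = 0.073), at 106 ± 6.16 CPM in 129 and 118 ± 5.74 in F1 (SD, n = 5 and 6). At P24, 1 member was higher in F1 and 2 were lower, against 3.46% and 2.87% of all genes (6.33% in all), and 7 had an unadjusted p under 0.05 (20.3% of all genes). The strains did not overlap for 0 members at P14 (2.35% of all genes higher and 2.13% lower) and for 1 at P24 (3.3% higher and 2.92% lower).

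Ndufa12 was the member higher in F1 at P24. It was at 17.9, 17.5 and 19.9 CPM in the KO-labelled 129 libraries, 19.0, 19.1 and 19.0 in the WT-labelled ones, 23.2 and 27.2 in P24_F1_KO and 22.7, 21.8 and 23.2 in P24_F1_WT. The strains did not overlap, and the difference was 0.35 ± 0.086 on the log2 scale (edgeR adjusted p = 0.0093). The complex II anchor gene Sdhc (-0.16 ± 0.048, adjusted p = 0.0408) and Uqcrc2 (-0.18 ± 0.054, adjusted p = 0.0443) were lower in F1, with overlap between strains. Without pool 5, 0 members were called in either direction, and without pool 4, 3 were higher. Without any 1 of libraries 7, 8, 10, 11, 12 or 14 no member was called lower, and without 6, 9 or 13 only 1 was. Lyrm7, an assembly factor of complex III, was higher in F1 (0.81 ± 0.13, adjusted p = 3.67e-05), and Cox18, which inserts a complex IV subunit, was lower (-0.44 ± 0.089, adjusted p = 0.00159).

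The paired isoforms kept their order in every group. Per kilobase, Cox4i2 made up 0.135% to 0.236% of the sum of Cox4i1 and Cox4i2 as a group mean, and Cox7a1 made up 1.19% to 2.48% of its pair with Cox7a2. Cox6b2 made up 0.678% to 0.985% of its pair with Cox6b1 at P14 and 1.08% to 1.52% at P24, also as group means. Single libraries overlapped between the ages in Cox6b2, at 1.06 to 2.27 CPM at P14 and 1.32 to 3.06 at P24. Atp5g1 made up 5.71% to 8.35% of its pair with Atp5g3, highest in the seizure group (8.04% to 8.88% over its 3 pools) and 4.54% and 8.14% in the P24_F1_KO pools.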

How the data were processed

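Whole hippocampi were pooled, and libraries were made with an unstranded kit (TruSeq RNA Library Preparation Kit v2), per the labels' protocols. Reads were handled with CASAVA, aligned to mm10 with TopHat2 2.1.0 and counted with HTSeq 0.6.1p1, per the submitters' processing notes; no source used here gives the annotation or strand setting. The deposited files hold raw counts per gene symbol, with no normalization by the authors. A deposited table of normalized signal, in which 6 of 25 columns (all P24 129) match count files of the other genotype, was not used for any test.

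From the counts, 24421 rows gave 15912 tested genes after edgeR's filter (minimum count 10). One edgeR 4.0.16 quasi-likelihood fit (limma 3.58.1, R 4.3.3) took all 25 libraries in 9 groups, with TMM scaling. Calls used a Benjamini-Hochberg adjusted p under 0.05 over all tested genes. The spread between libraries of a group (edgeR common BCV) was 7.572%. CPM are scaled to the TMM library size, and log2 CPM carry a prior count of 2. The SE is the log2 fold change divided by the square root of the test's F. Age and strain comparisons leave out the seizure pools. P-values measure the spread between pools, not between mice. The fit was tested on simulated counts. Transcript lengths come from the Ensembl canonical transcripts of a later build, and coordinates from RefSeq's GRCm38.p6 table.

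Named genes were, per comparison and complex, up to 3 called members each way by fold change, or the 1 with the smallest p, plus paired isoforms, the Sdh genes and up to 3 genes per pathway list. Uqcrc1, Uqcrc2 and Uqcrfs1 with age, Atp5a1, Atp5b, Atp5c1, Ndufv1 and, in the seizure comparison, Cox5a were named after their values were seen. Members and lists were chosen with earlier results of these data known. Alternatives were DESeq2 1.42.0, RLE scaling, no filter, only the groups compared, no seizure libraries, a transcript-length offset, each library left out and, chosen after seeing the data, pools 3 and 5 left out together.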

Additional observations from a re-analysis of the deposited data

How the results depend on the processing

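The age counts stayed within 1.5 times their values under every alternative run. No called member picked by the naming rule changed direction, but some log2 fold changes that were not called did: with the length offset Cox4i1 and Cox8a in F1 were at 0.04 and Ndufv1 in 129 at 0.009, and without pools 3 and 5 Atp5g2 in F1 was at -1.10. For the seizure group against wild type, the test called 40 members higher and 0 lower with no filter, 3 and 0 with only the groups compared, 16 and 2 with the length offset, and 58 higher without pools 3 and 5. Leaving out 1 library gave 6 to 58 higher and 0 to 1 lower, beside 16.6% to 30% of all genes in either direction. With no filter, only the groups compared and the length offset, 17.3%, 10.4% and 22.4% of all genes were called. For the seizure group against P24_F1_KO, DESeq2 called 8 higher, only the groups compared gave 0 higher and 0 lower, and leaving out pools 3 and 5 gave 36 higher. Leaving out 1 library gave 0 to 31 higher and 0 to 2 lower. For genotype in P24 F1, 8 members were higher without the seizure libraries (1.27% of all genes in either direction). For its difference between strains 3 were higher without them and 2 with only the groups compared (0.873% and 0.388% of all genes). For strain at P14, DESeq2 called 1 higher, leaving out the seizure libraries or using only the groups compared gave 3 higher and 1 lower, leaving out pools 3 and 5 gave 2 higher, and leaving out 1 library gave 0 to 1 higher. For strain at P24, RLE factors gave 0 lower, no filter 2 higher and 1 lower, no seizure libraries 5 higher and 4 lower, only the groups compared 5 higher, the length offset 2 higher, no pools 3 and 5 1 lower, and leaving out 1 library 0 to 3 higher and 0 to 2 lower. Without the seizure libraries, 6.32% of all genes were called in either direction for strain at P14 and 13.4% at P24. With only the groups compared it was 6.86% and 12.6%. The YY1 share of member promoters was 2.74% in the 250 bases before the start. The cause of these changes was not tested. No paired analysis was possible because the replicate numbers in the titles run through all libraries and no 2 groups share one. Pools of 3 to 4 mice in the seizure group and 2 pools in P24_F1_KO limit the results that use them.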
